A study of Mus musculus with 12 samples.

Results

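The constitutive proteasome subunits are the genes whose products form the standard protein-degrading machine of the cell, and their mRNA levels were examined in spinal cord of mice in which TDP-43 was deleted from astrocytes. Members were the genes with symbols Psma, Psmb, Psmc or Psmd and a number, without the inducible catalytic subunits Psmb8, Psmb9 and Psmb10, with a mean of at least 1 TPM (an abundance measure that accounts for the length of the transcript). The rule gave 34 genes of 36121 in the table, and 15259 genes reached the same mean and were tested. Just outside the limit lay Psmb11, the thymus form, with a mean of 0.701 TPM, and Psma8, the testis form, with 0.268 TPM. The lowest members inside it were Psmd10 at 16.0 TPM (1 of 2 rows with equal values), Psmd9 at 19.1 TPM and Psmd5 at 22.7 TPM. The rule itself uses no measured difference between groups, though it was set with earlier results of these data known.

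Spinal cords of 12 C57BL6 mice aged 3 months were sequenced, 4 in each of 3 groups, with 2 labelled male and 2 labelled female per group. Control mice were Tardbp-fl/fl and carried no Cre. The cHet mice were Gfap-Cre; Tardbp-fl/+ and the cKO mice were Gfap-Cre; Tardbp-fl/fl. Floxed alleles were thus present in every mouse, homozygous in control and cKO, and both cHet and cKO differed from control by the Gfap-Cre transgene as well as by deletion; no group with Cre and without a floxed allele was analysed here. Gfap drives Cre mainly in astrocytes, so most other cells of the cord are meant to keep Tardbp. Which cells lost it was not measured here. In whole tissue, fewer cells of a type and less RNA per cell cannot be told apart.

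The proteasome has a barrel-shaped core, the 20S particle, made of outer alpha rings that gate the entrance and inner beta rings that hold the proteolytic sites. A 19S regulatory particle caps the core: its base has a ring of ATPases that unfold and thread the substrate, and its lid removes the ubiquitin chains that marked the protein for destruction. Subunits are made in near-fixed proportions in the complex, and in mammals a shortage of proteasome activity is known to raise transcription of the whole set through the factor NRF1, encoded by Nfe2l1. TDP-43 is itself a nuclear RNA-binding protein that accumulates in ubiquitin-positive inclusions in amyotrophic lateral sclerosis.

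Tardbp was measured first as a check of the labels. Its level was 181, 167, 169 and 166 TPM in the 4 control mice, 178, 173, 172 and 158 TPM in cHet, and 150.3, 150.2, 151 and 141 TPM in cKO. All cKO values lay below all others, and the log2 difference from control was -0.20 ± 0.04 (SE, limma adjusted p = 0.0113), while cHet and control overlapped. The neuronal gene Chat, which marks motor neurons, was at 20.2 to 28.0 TPM over the 12 libraries and the posterior cord gene Hoxc10 at 34.3 to 42.7 TPM, while summed cervical and thoracic Hox genes differed between groups, as given beside the cKO comparison. Read depth is unknown, because TPM keeps none. Summed over all rows, a control library held 967165 ± 12164 TPM (SD, n = 4), a cHet library 1002460 ± 18688 TPM and a cKO library 1031670 ± 12645 TPM, and the totals of both Cre groups lay above every control (2-sided exact permutation p = 0.0286 each, the smallest that 4 against 4 mice allow). Mitochondrially encoded genes made up 17.3% of the control total, 17.2% of the cHet total and 19.6% of the cKO total.

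Most proteasome subunits were abundant transcripts of the cord and varied little between mice. Mean levels over the 12 mice ran from 16.0 TPM for Psmd10, a base assembly chaperone also called gankyrin, to 395 TPM for Psmc5, an ATPase of the base, a 24.7-fold range. Among the 15259 tested genes, 98.1% lay below Psmc5 and 47.8% below Psmd10. The 7 alpha-ring genes had means of 61.9 to 190.1 TPM, lowest for Psma2, and the 7 beta-ring genes 109 to 307 TPM. Of the 3 proteolytic subunits, Psmb7, the trypsin-like site, at 307 TPM and Psmb6, the caspase-like site, at 261 TPM were the highest of the beta ring. Psmb5, the chymotrypsin-like site and the main target of proteasome inhibitors, was at 191 TPM, the median of the ring. The 6 ATPase genes ranged from 99.8 to 395 TPM, the 3 other base genes from 93.7 to 143 TPM and the 8 lid genes from 43.1 to 119.9 TPM. The 3 genes that bear a Psmd symbol but encode assembly chaperones, absent from the mature particle, were the lowest of all at 16.0 to 22.7 TPM. In units of TPM, mRNAs of subunits that are equally abundant in the complex thus differed several fold.

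**Figure D1:**
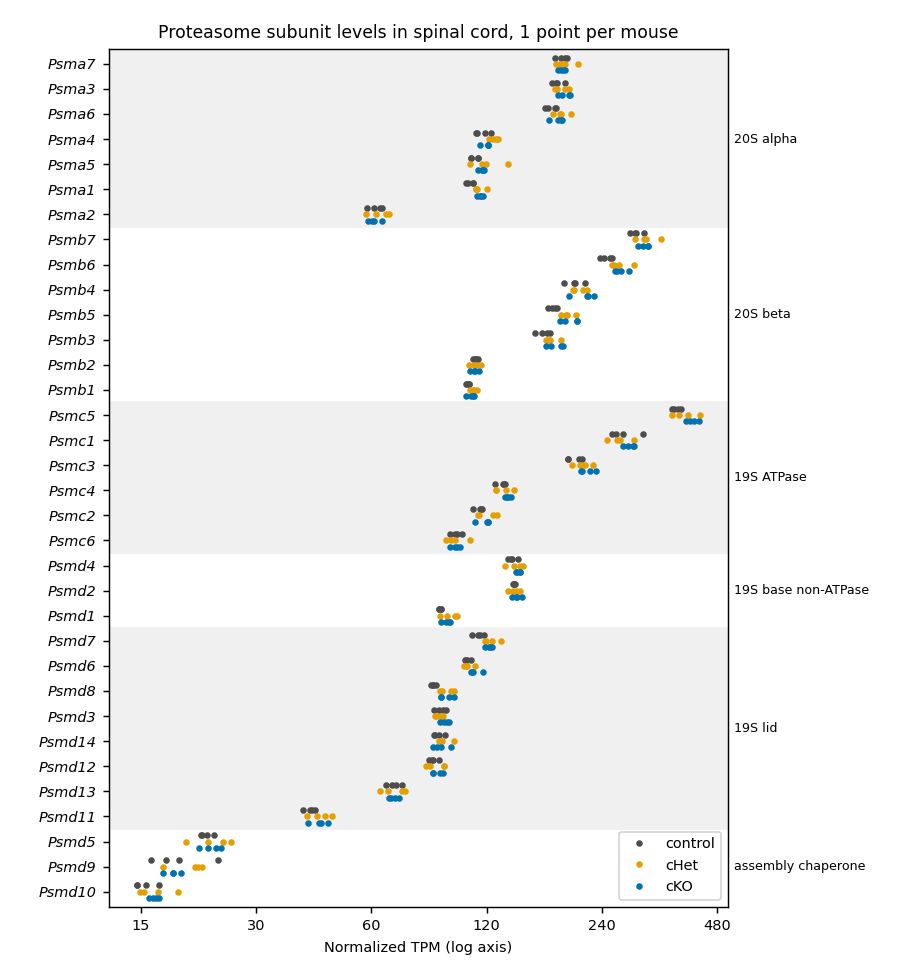
Normalized TPM of the 34 subunits on a log axis, 1 point per mouse, coloured by genotype and grouped by place in the particle. The 3 genotypes lie on each other for most genes, while genes differ from 16.0 TPM (Psmd10, 1 of 2 rows with equal values) to 395 TPM (Psmc5).

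The spread between mice was small. The median coefficient of variation over all 12 mice was 4.46% for the members, from 2.02% for Psmb2 to 12.1% for Psmd9, against a median of 6.42% for the 7670 genes whose means fell in the same range. Levels within that range were not matched. The median member was at 117 TPM, while 74.9% of all tested genes lay below 43.1 TPM. The mean TPM of a 20S gene divided by that of a 19S gene was 1.22 ± 0.0202 (SD, n = 4) in control mice, against 1.25 ± 0.0210 for cHet and 1.22 ± 0.0317 for cKO.

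The comparison of cKO with control asks about astrocytic loss of both Tardbp alleles together with Cre. Of the 34 subunits, 1 was called at a limma adjusted p under 0.05, the beta-ring gene Psmb5, which rose 1.11-fold (95% interval 1.04 to 1.18). That is 2.94% of the members, beside 9% of all genes tested. At an unadjusted p under 0.05 there were 8 members (23.5%), beside 22.8% of all genes, so the share of members past either threshold was below or near the background. That count was 5 without control replicate 2, cKO replicate 2 or cKO replicate 4, and 10 without cKO replicate 1 (29.4%, beside 21.9% of all genes). It was 1 (2.94%, beside 23.5% of all genes) once libraries were set to equal totals without mitochondrial genes. None fell (3.25% of all genes). Over the 34 intervals the lowest limit was 0.82-fold for Psmd9 and the highest 1.18-fold for Psmc5. The log2 differences ran from -0.05 for Psmd9 to 0.15 for Psmb5 with a median of 0.06, beside a median of 0.01 over all genes. They were positive in 28 of 34 members (82.4%, against 54.2% of all genes) on the deposited scale. At equal totals all genes moved down together: 18 of 34 members were positive (52.9%, against 38.4% of all genes), and the medians were 0.00 for the members and -0.04 for all genes.

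In the beta ring, Psmb5 was at 183, 173, 178 and 182 TPM in control, 193, 206, 188 and 195 TPM in cHet, and 187, 207, 192 and 207 TPM in cKO. On the deposited scale every mouse of both Cre groups lay above every control, and the 2 Cre groups overlapped. Means were 179 ± 4.43, 195 ± 7.54 and 198 ± 10.3 TPM (SD, n = 4), and cKO exceeded control by 0.15 ± 0.04 on the log2 scale (limma adjusted p = 0.0425, 2-sided exact permutation p = 0.0286). This call sat at the edge of the threshold. It was lost in 14 of 22 alternative analyses, with adjusted p from 0.0517 to 0.123 on leaving out any control mouse, cHet replicate 1 or 4, or cKO replicate 2, 3 or 4, with 0.0573 after median-of-ratios rescaling and with 0.115 at equal totals. Psmb5 lies at chr14:54614119-54618022 on the minus strand of GRCm38, next to its thymus-specific relative Psmb11, and the microRNA gene Mir686 overlaps its exons.

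The other proteolytic subunits gave smaller differences that did not pass the test. Psmb6 (chr11:70525367-70527858, plus strand) was at 253, 238, 256 and 244 TPM in control, 255, 291, 266 and 259 TPM in cHet and 259.6, 282, 263 and 269.5 TPM in cKO. The cKO values lay above all controls and the cHet values overlapped with both groups; the cKO difference was 0.12 ± 0.04 (limma adjusted p = 0.126). Psmb7 (chr2:38588036-38644087, minus strand), whose exons overlap those of Nek6 on the opposite strand, was at 293, 284, 294 and 309.8 TPM in control, 294, 343, 313 and 310.0 TPM in cHet and 298, 308, 316 and 317 TPM in cKO. These groups overlapped, with a difference of 0.07 ± 0.04 (limma adjusted p = 0.399). Over the beta ring as a group, 6 of 7 differences were positive with a median of 0.09, and Psmb2 was the exception at -0.01. The alpha ring had a median of 0.06, 5 of 7 positive and none called; its lowest value was that of Psma2 (-0.01 ± 0.05, limma adjusted p = 0.898).

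In the regulatory particle no gene was called in cKO against control. The smallest adjusted p there was that of Psmd8 of the lid (0.11 ± 0.04, limma adjusted p = 0.0694). Psmc5, an ATPase of the base (chr11:106256154-106263120, plus strand), came nearest in size. It was at 381, 367, 370.2 and 387 TPM in control, 383, 433, 403 and 367 TPM in cHet and 398, 408, 431 and 418 TPM in cKO. The 4 cKO mice lay above the 4 controls while cHet spanned both, and the difference was 0.14 ± 0.05 (limma adjusted p = 0.0918). It passed the threshold in 2 alternatives, without cHet replicate 2 (adjusted p = 0.0353) and with only control and cKO in the fit (0.0289). The ATPases as a group had a median of 0.05 with 5 of 6 positive, the 3 other base genes a median of 0.06 with all 3 positive, and the 8 lid genes a median of 0.05 with 7 positive. The chaperone Psmd9 was at 23.8, 15.9, 18.9 and 17.4 TPM in control, 17.1, 21.1, 20.7 and 21.7 TPM in cHet and 19.1, 18.2, 18.2 and 17.1 TPM in cKO. Its groups overlapped fully, and it had the widest interval of any member.

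**Figure D2:**
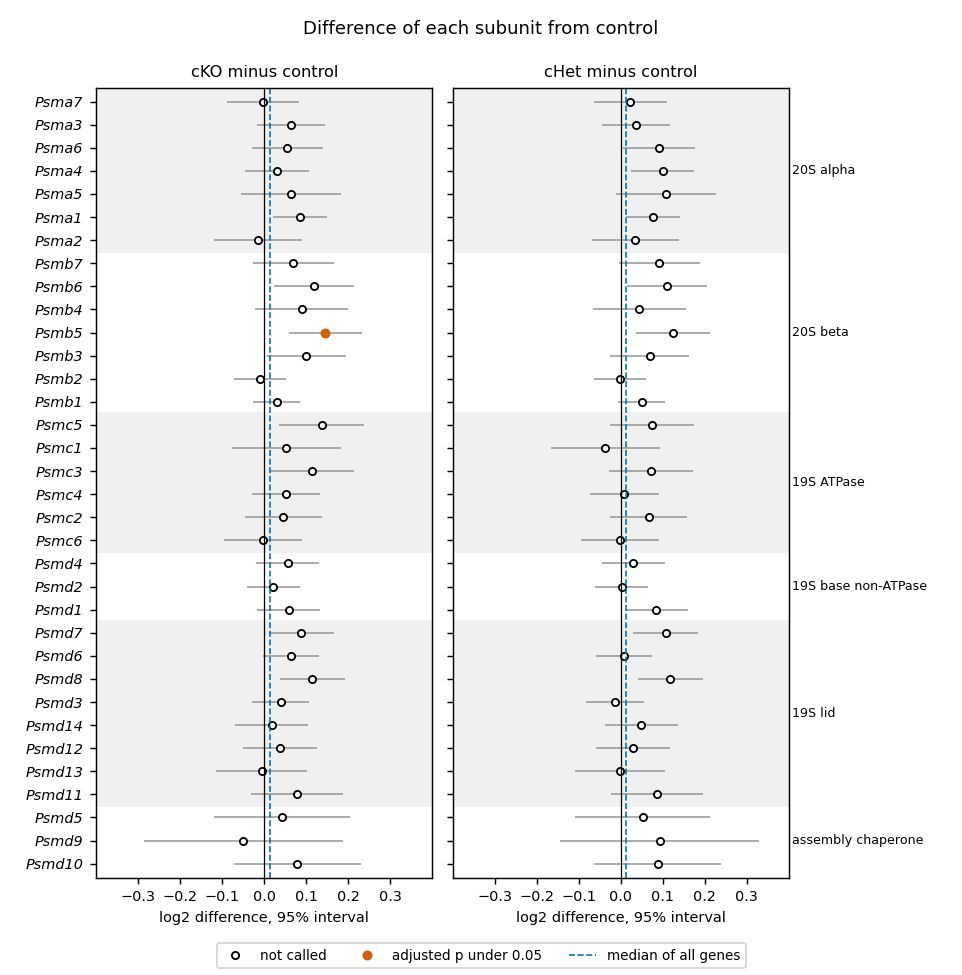
Log2 difference of each subunit from control with its 95% interval, for cKO (left) and cHet (right), with the median of all genes tested as a dashed line. Psmb5 in cKO is the filled point, at 0.15; most open points lie to the right of 0 in both panels, and those of Psmd9 have the widest intervals.

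On the deposited scale, complete separation of the 4 cKO from the 4 control mice was seen for 8 members, all higher in cKO (23.5% of members, beside 10.5% of all genes), and for no member lower (6.59% of all genes). They were Psma1 of the alpha ring, Psmb5 and Psmb6 of the beta ring, Psmc5 and Psmd1 of the base, and Psmd6, Psmd7 and Psmd8 of the lid. Their sizes were small, for example 94.2 ± 3.55 TPM for Psmd8 in cKO against 86.9 ± 1.02 TPM in control. Every cKO library total lay above every control on that scale. Separation was not counted at equal totals, where 1 member reached an unadjusted p under 0.05. The same libraries differed in cell type markers. Of 10 markers each, 8 microglial markers were called higher and none lower, 4 astrocytic markers higher and 2 lower, and 7 oligodendrocyte markers lower and none higher. Summed microglial markers were at 360.2 to 374 TPM in control and 472 to 513 TPM in cKO, astrocytic ones at 3425 to 3633 and 4000.0 to 4501 TPM, and oligodendrocyte ones at 21077 to 22075 and 17513 to 19940.4 TPM. Of 10 neuronal markers 3 were higher, and of 5 oligodendrocyte precursor markers 1 was lower, Sox10. None of the 6 motor neuron, 5 endothelial or 5 blood markers was called, nor the 1 Schwann cell marker tested. Of 6 Hox genes of the cervical and thoracic cord 1 was higher, Hoxb8 (limma adjusted p = 0.00227), and their sum did not overlap between groups, at 390.4 to 405 TPM in control and 427 to 465 TPM in cKO. The 6 lumbosacral Hox genes gave no call. The part of these markers and Hox genes in the subunit differences was not tested.

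The comparison of cHet with control asks about loss of a single allele together with Cre, against the same 4 control mice. No subunit was called, and neither was any of the 15259 genes (0%). At an unadjusted p under 0.05 there were 8 members (23.5%), beside 11.3% of all genes; the count was 4 without cHet replicate 2 or without control replicate 2, 12 without cHet replicate 1, and 0 at equal totals (12.4% of all genes). On the deposited scale, all 4 cHet mice lay above all 4 controls for 5 members (14.7%, beside 4.12% of all genes), namely Psma1, Psmb1, Psmb5, Psmd7 and Psmd8, and none lay below (2.1% of all genes). Every cHet library total also lay above every control on that scale, and this separation was not counted at equal totals. The median log2 difference was 0.06 with 29 of 34 positive (85.3%), beside 0.01 and 55.2% over all genes. At equal totals it was 0.01 with 17 of 34 positive, beside -0.04 and 33.4% over all genes. Summed marker levels in cHet were 372 to 399.9 TPM for microglia, 3489 to 3672 TPM for astrocytes and 21085 to 25032 TPM for oligodendrocytes, each overlapping the control range and reaching above it, and no marker of any cell type was called there.

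The largest positive differences in cHet were those of Psmb5 (0.12 ± 0.04, limma adjusted p = 0.297) and of Psmd8, a lid subunit. Psmd8 was at 88.2, 86.9, 85.8 and 86.7 TPM in control, 90.5, 96.6, 98.5 and 92.0 TPM in cHet, and 91.2, 95.7, 91.3 and 98.5 TPM in cKO. On the deposited scale both Cre groups lay above every control and covered the same range. The cHet difference was 0.12 ± 0.04 (limma adjusted p = 0.268), and its lowest value over the 22 alternatives was 0.06. Psmc1, an ATPase, gave the lowest cHet value at -0.04 ± 0.06, and Psmd3, a lid subunit, followed at -0.01 ± 0.03. Over the 34 intervals the lowest limit was 0.891-fold for Psmc1 and the highest 1.26-fold for Psmd9.

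Between cKO and cHet, which both carry Cre, no subunit was called, beside 5.01% of all genes (2.41% higher and 2.61% lower), and none reached an unadjusted p under 0.05, beside 18.2% of all genes. The median log2 difference was 0.00, and 15 of 34 were positive. The extremes were Psmc1 at 0.09 ± 0.06 and Psmc5 at 0.06 ± 0.05 above, and Psmd9 at -0.14 ± 0.11 and Psma4, an alpha-ring subunit, at -0.07 ± 0.03 below. Psma4 was at 122, 125, 127 and 129 TPM in cHet and 121, 121, 115 and 121 TPM in cKO, and was the only member whose cKO and cHet mice did not overlap (limma adjusted p = 0.322). For all genes such separation was seen downward in 5.33% and upward in 6.14%. Over the 34 intervals the lowest limit was 0.769-fold for Psmd9 and the highest 1.16-fold for Psmc1.

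Summed over the 34 genes, the level averaged 4578 ± 70.1 TPM (SD, n = 4) for control mice, 4763 ± 199 TPM for cHet and 4799 ± 92.0 TPM for cKO. Control mice were at 4598, 4475, 4608 and 4631 TPM, cHet mice at 4579, 5032, 4785 and 4656 TPM and cKO mice at 4666, 4833, 4819 and 4878 TPM. The 4 cKO mice lay above the 4 controls, and cHet spanned from the control range to the highest value of all. That order belongs to the deposited scale. As a share of the library total, the sum was 0.473 ± 0.00525% for control mice, 0.475 ± 0.0114% for cHet and 0.465 ± 0.00472% for cKO, so that cKO became the lowest group. By that share the 4 cKO mice lay below the 4 controls, though narrowly: the highest cKO value was 0.4685% and the lowest control value 0.4686%. As a share of the total without mitochondrially encoded genes, the sum was 0.572 ± 0.00692% for control mice, 0.573 ± 0.0152% for cHet and 0.578 ± 0.00482% for cKO, with cKO the highest mean and all groups overlapping.

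**Figure D3:**
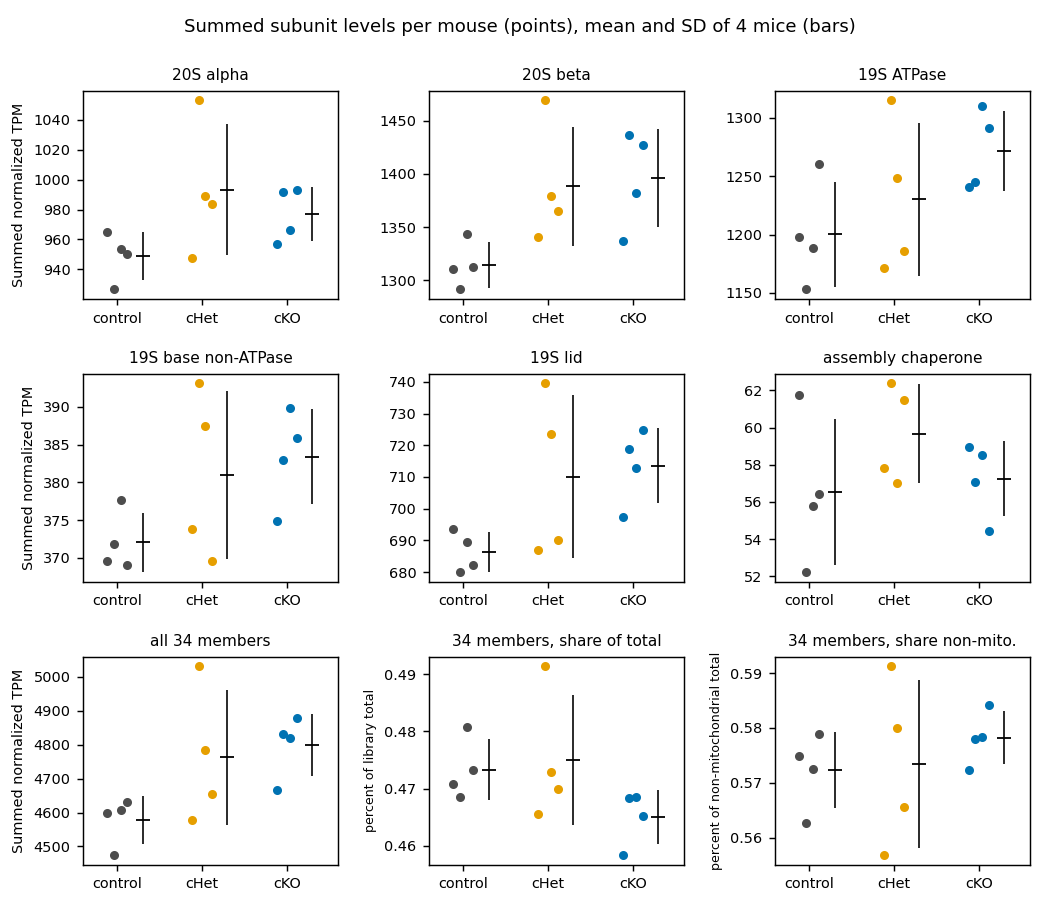
Summed TPM per mouse for each subunit group and for all 34 members, with mean and SD of 4 mice; the last 2 panels divide the sum by the library total, with and without mitochondrially encoded genes. The vertical axes do not start at 0. The cHet mouse at 5032 TPM stands above the rest, and the cKO mean is highest in TPM (4799) and as a share of the non-mitochondrial total (0.578%) and lowest as a share of the whole total (0.465%).

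One mouse weighed on the cHet values. The library of cHet replicate 2 had the highest level of all 12 for 18 of the 34 subunits, with a median deviation of 0.09 on the log2 scale beside 0.01 over all genes. At the other end, control replicate 2 was the lowest for 12 subunits. Without cHet replicate 2 the median of cHet minus control was 0.03 instead of 0.06, and that of cKO minus cHet was 0.02 with 24 of 34 positive.

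**Figure D4:**
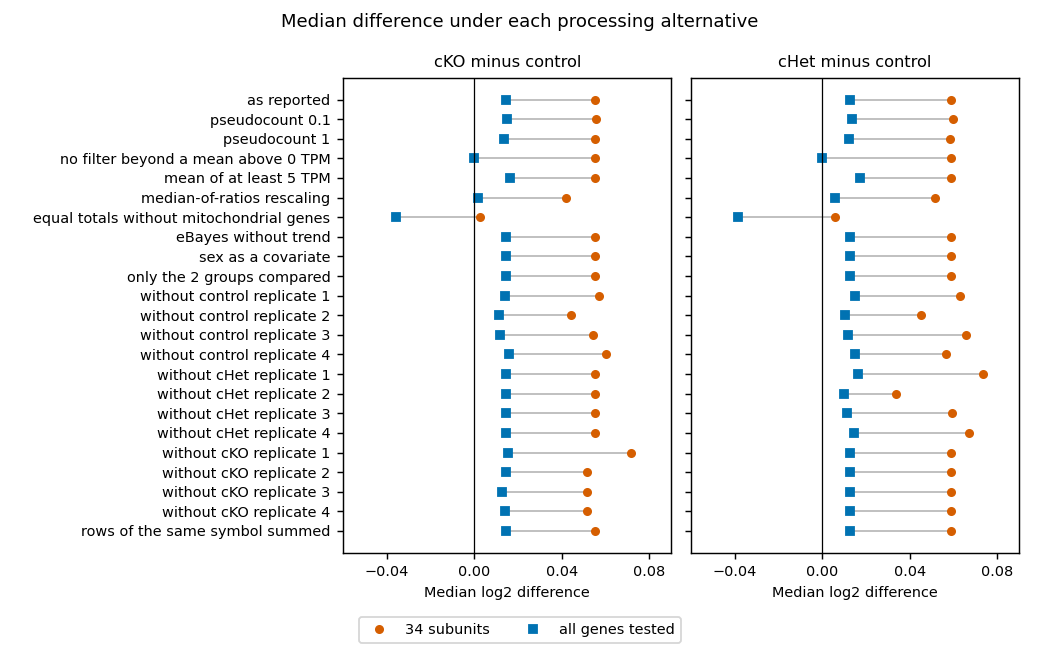
Median log2 difference from control of the 34 subunits (circles) and of all genes tested (squares) under each processing alternative, for cKO (left) and cHet (right). The subunit median lies above that of all genes in every line, and comes to 0.00 in cKO and 0.01 in cHet where libraries were scaled to equal totals without mitochondrial genes, which brings the median of all genes to -0.04 in both.

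The inducible catalytic subunits Psmb8, Psmb9 and Psmb10, which replace Psmb5, Psmb6 and Psmb7 in the immunoproteasome after interferon signalling, were examined beside their constitutive partners. Psmb8 was at 5.37, 4.84, 3.82 and 4.72 TPM in control, 5.75, 4.60, 6.77 and 5.41 TPM in cHet and 6.24, 8.76, 6.41 and 6.46 TPM in cKO. All cKO mice lay above the controls, and Psmb8 rose by 0.52 ± 0.14 on the log2 scale (limma adjusted p = 0.0330). As a percentage of Psmb5 it stood at 2.62 ± 0.341% (SD, n = 4) for control mice, 2.90 ± 0.566% for cHet and 3.50 ± 0.495% for cKO (2-sided exact permutation p = 0.0286 for cKO against control). The call was lost in 8 of 22 alternatives, with adjusted p from 0.0524 to 0.0887 on leaving out control replicate 2, 3 or 4 or cKO replicate 2, 3 or 4.

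Psmb9 was at 4.09, 2.53, 2.54 and 2.75 TPM in control, 2.81, 2.65, 2.24 and 1.84 TPM in cHet and 3.73, 3.90, 4.09 and 3.39 TPM in cKO. The first control mouse was as high as the cKO mice. Psmb9 was not called against control (0.32 ± 0.15, limma adjusted p = 0.230) and rose in cKO against cHet (0.58 ± 0.15, limma adjusted p = 0.0468). Leaving out any mouse other than control replicate 1 or cHet replicate 1 moved that adjusted p to between 0.0546 and 0.113. Psmb10, at 79.1 ± 5.78, 83.9 ± 8.05 and 89.7 ± 10.2 TPM in control, cHet and cKO, was not called. It stood at 26.8%, 26.6% and 28.9% of Psmb7 (2-sided exact permutation p = 0.286 for cKO against control). Psmb9 stood at 1.20%, 0.893% and 1.41% of Psmb6 in control, cHet and cKO (2-sided exact permutation p = 0.229 for cKO against control). Constitutive subunit mRNA thus exceeded its inducible partner in every group.

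**Figure D5:**
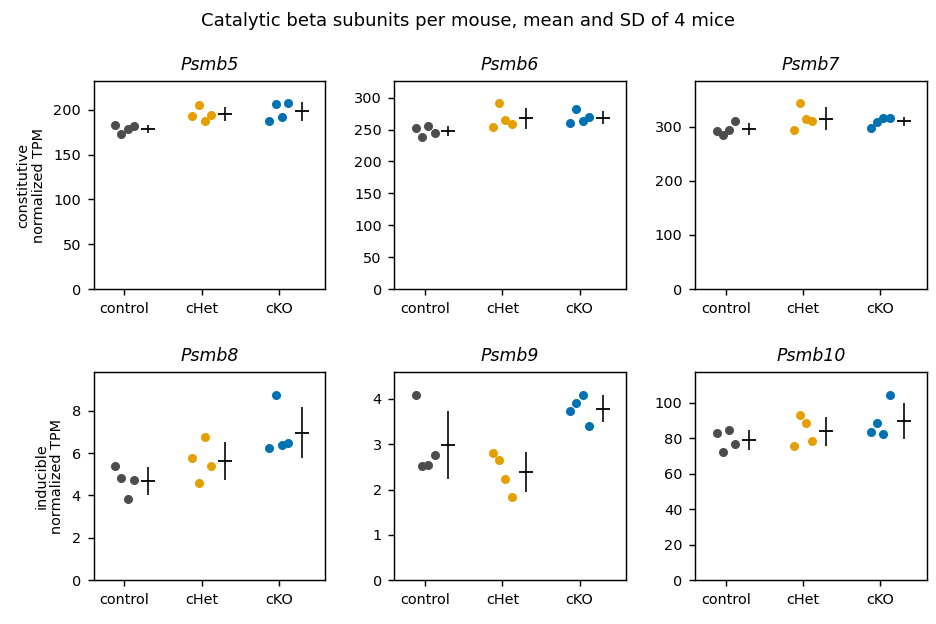
Normalized TPM of the constitutive catalytic subunits (top) and their inducible partners (bottom) per mouse, with mean and SD of 4 mice; axes start at 0 and differ between panels. Psmb5 sits at 173 to 183 TPM in control and at 187 to 207 TPM in both Cre groups, and Psmb8 at 3.82 to 5.37 TPM in control and 6.24 to 8.76 TPM in cKO.

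Other genes of the pathway were taken from 39 listed genes, of which 38 were tested. Of these, 2 rose in cKO against control (beside 5.75% of all genes) and none fell (3.25% of all genes). None was called in cHet against control (0% of all genes), and 2 rose in cKO against cHet (2.41% of all genes). Apart from the inducible subunits, the gene called in both cKO comparisons was Psme3. It encodes the nuclear activator PA28 gamma, which opens the core without ubiquitin. It was at 65.5, 62.4, 62.0 and 64.3 TPM in control, 64.0, 64.6, 66.8 and 66.4 TPM in cHet and 71.9, 69.1, 70.4 and 73.4 TPM in cKO. All cKO mice lay above all others, by 0.16 ± 0.03 over control (limma adjusted p = 0.00713) and by 0.12 ± 0.03 over cHet (limma adjusted p = 0.0458). The first call held on leaving out each mouse and was lost at equal totals (adjusted p = 0.0706). The second was lost on leaving out any of the 12 mice (0.0516 to 0.132).

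No member of the remaining lists was called in cKO against control. The smallest p in each belonged to Psmg4, a core assembly chaperone (0.20 ± 0.08, limma adjusted p = 0.178), Txnl1, a thioredoxin bound to the 19S particle (0.05 ± 0.04, limma adjusted p = 0.456), Ubqln2, a shuttle factor mutated in familial motor neuron disease (0.11 ± 0.04, limma adjusted p = 0.115), the polyubiquitin gene Ubb (0.10 ± 0.03, limma adjusted p = 0.0951) and the segregase Vcp (0.03 ± 0.03, limma adjusted p = 0.626). Nfe2l2, an inducer of antioxidant genes, gave 0.07 ± 0.06 (limma adjusted p = 0.511) and the aggregate receptor Sqstm1 0.06 ± 0.03 (limma adjusted p = 0.327). Ubqln2 was called without control replicate 1 (adjusted p = 0.0379). Nfe2l1, encoding NRF1, had 209.8 ± 13.6 TPM in control, 212 ± 9.47 TPM in cHet and 211 ± 9.96 TPM in cKO.

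In cHet against control, the smallest p of each other list belonged to Psme3 (0.04 ± 0.03, limma adjusted p = 0.665), Psmg3 (0.18 ± 0.07, limma adjusted p = 0.378), the 19S-associated ligase Ube3c (0.07 ± 0.03, limma adjusted p = 0.419), Ubqln1 (0.05 ± 0.03, limma adjusted p = 0.568), Ubb (0.10 ± 0.03, limma adjusted p = 0.303), the Vcp cofactor Nploc4 (-0.11 ± 0.05, limma adjusted p = 0.467), Nfe2l2 (0.09 ± 0.06, limma adjusted p = 0.609) and Sqstm1 (0.00 ± 0.03). In cKO against cHet, the uncalled values included 0.11 ± 0.04 for Ubqln2 (limma adjusted p = 0.171) and -0.02 ± 0.06 for Nfe2l2 (limma adjusted p = 0.934). The median over the 38 genes was 0.04 in cKO and 0.02 in cHet against control, beside 0.06 and 0.06 for the 34 subunits.

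Promoters were read because proteasome genes are known targets of NRF1 and its relative NRF2, which bind antioxidant response elements. RefSeq windows of 250 bases before the gene start (GRCm38.p6) were present for 28 of the 34 members. The letters TGACNNNGC, the core of that element, were found on either strand in 5 of the 28 (17.9%), beside 11.5% of 27025 genes. They were Psmb5, Psmb6, Psmc6, Psmd12 and Psmd9. Stretches of 3 are printed in the direction of the gene with the match in capitals, for the called gene, for the catalytic subunit next to it in size, and for the chaperone with the lowest difference in cKO.
Psmb5, chr14:54618008-54618068, minus strand: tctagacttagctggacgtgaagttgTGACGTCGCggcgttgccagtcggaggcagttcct
Psmb6, chr11:70525322-70525356, plus strand: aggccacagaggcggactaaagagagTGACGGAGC
Psmd9, chr5:123228133-123228189, plus strand: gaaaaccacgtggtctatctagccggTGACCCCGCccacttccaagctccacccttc

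The match began 47 bases before the RefSeq start in Psmb5, 9 bases before it in Psmb6 and 31 bases before it in Psmd9. The genes that share it spanned the whole range of differences, from 0.15 for Psmb5 to -0.05 for Psmd9 in cKO against control. The letters CCAAT, a common promoter box, were found on either strand in 11 of 28 members (39.3%), beside 37.5% of all genes, and no member held both. A match of letters is not a measured site. GENCODE places Psmd9 at chr5:123169413-123250131, so its printed stretch lies inside the gene by that annotation.

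The authors' deposited table for cKO against control, made with sleuth's own tests, listed 3 of the 34 members at a likelihood ratio q under 0.05 (9.42% of all its genes), with q = 0.0138 for Psmc5, 0.0260 for Psmb5 and 0.0408 for Psmd8. By the Wald q in the authors' deposited table there were 4 members, Psmb6 being the addition (q = 0.0428), beside 10.2% of all its genes. In the authors' deposited table for cHet against control no member was listed by either test (0% and 0.156% of its genes), the smallest likelihood ratio q being 0.446 for Psmb5. The authors' deposited table for cKO against cHet listed none either (3.78% and 4.94% of its genes).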

How the data were processed

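RNA was extracted with Trizol from frozen cords and sequenced after an Illumina TruSeq preparation, per the labels' protocols. Abundances came from kallisto 0.44.0 and sleuth 0.30.0 on GRCm38, per the submitters' processing notes. Filters, annotation release and strand use were not given in the sources used here. Deposited by the authors were normalized TPM per gene, a never-negative signal whose sum differs between libraries, and tables of p-values and q-values (p-value columns of the authors' own tests), with effect and variance columns treated as scores of unstated scale. The authors' score columns were not used for any result. Each library is from a separate mouse; replicate numbers are names in accession order.

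Genes averaging 1 TPM or more over the 12 mice were transformed to log2(TPM + 0.5) and compared with limma 3.58.1 in R 4.3.3 with eBayes trend, all 12 mice and no covariate, two-sided, Benjamini-Hochberg adjustment over 15259 genes, called under 0.05. Fold changes are on that log2 scale. "Rose" and "fell" are used of called genes. Single values per library were compared by an exact permutation test over 70 assignments. The limma step was tested on simulated data. Coordinates are from GENCODE M21 (GRCm38). Where 2 rows carry one symbol (Psmd10, with equal values in both), the row present in GENCODE was used, and each of its 2 rows may hold a part of the gene's reads. Exons of 9 members overlap another gene, and how reads were divided there is not known.

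The members, lists, tests and motifs were chosen with earlier results of these data known. Genes were named by rule: called members, Psmb5 to Psmb7, the highest and lowest by mean, the 2 largest differences in each direction, and in each list the called genes or that with the smallest p; members whose groups did not overlap, Psmb2 and Nfe2l1 were added after their values were seen. Alternatives were 2 other pseudocounts, 2 filters, 2 rescalings, no trend, sex as covariate, 2 groups per fit, summed rows and leaving out each mouse. Paaf1 was not analysed here, and 1 listed gene is not reported here.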

Additional observations from a re-analysis of the deposited data

Results flagged for a closer look

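In 11 of the 213 groups of 4 mice examined (each subunit, pathway gene named by rule, sum, ratio and library total, in each genotype), a single mouse stood apart from the other 3 by a gap, relative to the group's range, above Dixon's critical value; chance alone gives about 1 in 20 such groups. Among subunits, Psma4 was at 115 TPM in cKO replicate 3, below 120.9 to 121.4 TPM in the other cKO mice. Psmc2, an ATPase of the base, was at 112 TPM in cKO replicate 1, below 120.2 to 121 TPM. Psma1 was at 120.2 TPM in cHet replicate 2, above 112 to 113 TPM. Psmd6, a lid subunit, was at 117 TPM in cKO replicate 3, above 109 to 110.4 TPM. Among other genes, Psmb8 was at 8.76 TPM in cKO replicate 2, above 6.24 to 6.46 TPM, and Psmb9 at 4.09 TPM in control replicate 1, above 2.53 to 2.75 TPM. Tardbp was at 140.5 TPM in cKO replicate 4, below 150.2 to 151 TPM. Ubqln2 was at 75.3 TPM in cKO replicate 1, below 80.4 to 80.9 TPM, and Nploc4 at 27.7 TPM in cKO replicate 3, below 31.5 to 31.8 TPM. Txnl1 was at 70.9 TPM in cKO replicate 2, above 68.3 to 68.5 TPM, and Rps27a at 757 TPM in cHet replicate 2, above 683 to 695 TPM.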

How the results depend on the processing

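No paired analysis was possible because the labels give mouse identifiers and no number shared between groups. Of 22 alternatives, the number of subunits called in cKO against control was 0 without a filter, with median-of-ratios rescaling, at equal totals and without the eBayes trend, and 0 to 2 on leaving out a mouse (all genes called 815 to 1513). Without a filter, 2 genes of all were called in cHet against control, and 0 to 1 on leaving out a mouse. At equal totals without mitochondrial genes the member median was 0.00254 in cKO and 0.00598 in cHet, beside -0.0360 and -0.0387 for all genes, which this scaling lowers together; the all-gene calls of cKO split into 465 higher and 821 lower instead of 878 and 496 (734 and 545 after median-of-ratios rescaling), and the sign turned for Txnl1 (-0.00164) and Vcp (-0.0228) in cKO and for Psme3 (-0.0116), Ubqln1 (-0.00549) and Sqstm1 (-0.0536) in cHet; Sqstm1 also turned with median-of-ratios (-0.00746). Uncalled differences near 0 changed sign on leaving out a mouse. Against control these were Psma2 (-0.0401 to 0.00468) and Psmd9 (-0.128 to 0.0619) in cKO, and Psmc1 (-0.0779 to 0.0196), Psmd3 (-0.0322 to 0.00226), Sqstm1 (-0.0157 to 0.0181) and Tardbp (-0.0247 to 0.0327) in cHet. For cKO against cHet they were Psmb5 (-0.000803 to 0.0480), Psmb6 (-0.0173 to 0.0479), Psmb7 (-0.0554 to 0.0189), Psmd10 (-0.0505 to 0.0567) and Nfe2l2 (-0.0417 to 0.0277). The Tardbp difference between cKO and cHet missed the threshold without cKO replicate 4 (adjusted p = 0.0522). Causes were not tested. Read depth is unknown, so precision rests on the spread of 4 mice per group.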

Other observations

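Sex as labelled was balanced in every group. With genotype in the model no subunit and no gene of the 15259 was called between mice labelled male and female. Of 34 subunits, 24 had a higher mean in those labelled male, with a median log2 difference of 0.01. Thus no gene bore out the labelled sex in that model, and the results by sex rest on the labels alone. No subunit was called or reached an unadjusted p under 0.05 for a sex difference in the effect of cKO or of cHet, and 1 gene of 15259 was called for each of these terms. Of the pseudogenes named for members, Psmb7-ps2 had a mean of 0.948 TPM and Psmb6-ps of 0.00922 TPM, while Psmb5-ps and Psmb6-ps2 were listed at 0 in all libraries.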
